A study of Mus musculus with 41 samples.

Results

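The regions described here were stretches of gastrocnemius muscle chromatin that carried histone H3 lysine 18 lactylation (H3K18la) and that overlapped peaks of H3K27me3 in mouse embryonic stem cells. They were chosen by measured values, as peaks of the gastrocnemius (GAS) H3K18la list on chromosomes 1 to 19 that shared at least 1 bp with an H3K27me3 peak of serum-grown stem cells (mESC-ser), shared none with an mESC-ser H3K18la peak and reached no promoter. A promoter was the stretch from 2 kb upstream to 2 kb downstream of any annotated transcription start site (TSS). Of 36322 GAS H3K18la peaks 23576 were promoter-free, and 1477 of these (6.26%, 95% Wilson interval 5.96% to 6.58%) met the rule. The 24 peak lists together held 533048 peaks on these chromosomes.

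H3K27me3 is written by Polycomb repressive complex 2, which keeps developmental regulator genes silent in pluripotent cells. When a lineage is specified, some of these domains lose the mark while others are kept or gained. H3K18la is an acylation derived from lactate and, like H3K27ac, is found at active promoters and enhancers. H3K4me3 marks promoters with CpG-rich sequence above all, and appears at some strong enhancers.

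The series profiled these 4 histone post-translational modifications (hPTMs) by CUT&Tag, an assay in which a transposase tethered to an antibody tags chromatin that carries the mark, in 41 samples of 24 groups (17 groups of 2 samples and 7 of 1). GAS was whole gastrocnemius of C57BL/6 mice, a tissue of mixed nuclei, with 2 samples for each of its 4 marks. The stem cells were the E14 line, a single line profiled as whole cells and grown either with serum and LIF (mESC-ser) or with 2i and LIF (mESC-2i), each mark in 2 samples except mESC-ser H3K27ac, which had 1. Primary myoblasts (MB) had 1 sample per mark and the myotubes differentiated from them in culture (MT) had 2. Bone marrow-derived macrophages (BMDM) had 1 sample per mark. Post-ischemia macrophages (PIM) were sorted as CD45+ CD11b+ F4/80+ CD64+ cells from calf muscle after ligation of the femoral artery, with 2 samples per mark and 1 for H3K27ac. White adipocyte nuclei (ADIPO) came from AdipoCre-NuTRAP mice, in which an adipocyte-expressed Cre tags nuclei for capture on streptavidin beads, with 2 samples each for H3K18la and H3K27ac. No ADIPO H3K27me3 list was used here. All cells other than the stem cells were profiled as nuclei.

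Replicates were pooled before peaks were called, so that each group is represented by 1 peak list and no difference between groups could be tested over samples. Shares are therefore given with 95% Wilson intervals, which cover counting error only, beside the same share over all 23576 promoter-free GAS H3K18la peaks. Sequencing depth is unknown from the lists, and the read numbers that the paper gives for each sample were not used here. A tissue list does not tell fewer nuclei with a mark from less of the mark in each nucleus. At the GAS promoters of marker genes, H3K18la was called at 8 of 10 skeletal muscle, 3 of 4 satellite cell, 5 of 5 endothelial and 5 of 5 fibroblast genes, against 1 of 5 macrophage, 1 of 4 adipocyte, 1 of 4 smooth muscle, 1 of 4 Schwann cell and 0 of 4 stem cell genes. The muscle genes without it were Myh1 and Myh2, fast myosin heavy chains, whose promoters did carry H3K27ac. GAS H3K27me3 was called at 3 of 4 stem cell, 3 of 4 adipocyte, 3 of 5 fibroblast, 2 of 4 Schwann cell and 2 of 5 endothelial genes. It was also called at 2 of 10 skeletal muscle, 1 of 4 satellite cell, 1 of 4 smooth muscle and 1 of 5 macrophage genes. The 2 skeletal muscle genes were Ckm and Acta1, whose promoters carried H3K18la and H3K27ac as well. The endothelial genes were nearest to 8 of the 1477 regions (0.542% against 0.148% of all promoter-free peaks), the fibroblast genes to 5 (0.339% against 0.0763%), the satellite cell genes to 2 (0.135% against 0.0254%), the skeletal muscle genes to 1 (0.0677% against 0.0254%) and those of the other 5 lists to 0. The part of non-muscle nuclei in the results was not tested.

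The DNA under the strongest signal of 5 regions is printed as an example of what carried the most muscle H3K18la in them. Each sequence is 300 bases of GRCm38 (mm10) centred on the stretch of highest H3K18la coverage in the region. Of the 300 bases, stem cell H3K27me3 peaks held 285 in the Col4a2 sequence, all in the Bcl6 and Irf2bp2 sequences and 0 in those of Zbtb16 and Slco3a1, and they covered 25.8% (Col4a2), 10.8% (Zbtb16), 7.76% (Bcl6), 10.9% (Slco3a1) and 14.9% (Irf2bp2) of the whole regions. The first set of 2 are the regions with the largest total signal of all, and the second set of 3 are among the 4 largest that also carried H3K18la in MB and MT and had H3K27me3 in none of MB, MT, GAS, BMDM and PIM. Capitals mark matches, on either strand, to the E-box CAGCTG bound by myogenic bHLH factors, the AP-1 motif TGANTCA, the TEAD motif ACATTCC, the MEF2 motif in its strict form, with CTA and TAG at its ends and A or T between them, or the palindromic glucocorticoid response element. The largest region, in Col4a2, which encodes a basement membrane collagen chain, and the region in Zbtb16, which encodes the zinc finger repressor PLZF, read as follows.

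Col4a2 region, chr8:11382605-11382904, plus strand: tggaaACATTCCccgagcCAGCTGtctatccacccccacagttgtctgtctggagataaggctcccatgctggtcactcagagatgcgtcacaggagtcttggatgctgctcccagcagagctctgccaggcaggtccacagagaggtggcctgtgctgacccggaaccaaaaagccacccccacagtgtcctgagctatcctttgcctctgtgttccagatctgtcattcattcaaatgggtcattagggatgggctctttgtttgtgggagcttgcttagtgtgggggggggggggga
Zbtb16 region, chr9:48773185-48773484, plus strand: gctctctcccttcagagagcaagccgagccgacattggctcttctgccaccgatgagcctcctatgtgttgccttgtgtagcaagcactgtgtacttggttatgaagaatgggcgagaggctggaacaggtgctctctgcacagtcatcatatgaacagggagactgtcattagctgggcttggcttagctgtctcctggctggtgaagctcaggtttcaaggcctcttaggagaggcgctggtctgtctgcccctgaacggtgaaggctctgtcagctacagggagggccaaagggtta

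The regions nearest to Bcl6, a transcriptional repressor, in an intron of Slco3a1, an organic anion transporter, and nearest to Irf2bp2, a corepressor, read as follows.

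Bcl6 region, chr16:24193969-24194268, plus strand: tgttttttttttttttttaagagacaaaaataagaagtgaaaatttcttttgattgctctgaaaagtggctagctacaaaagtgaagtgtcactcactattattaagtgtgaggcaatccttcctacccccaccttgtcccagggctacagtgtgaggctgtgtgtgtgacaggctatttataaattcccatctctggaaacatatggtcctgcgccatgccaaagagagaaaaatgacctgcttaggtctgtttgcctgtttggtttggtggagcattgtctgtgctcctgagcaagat
Slco3a1 region, chr7:74381019-74381318, plus strand: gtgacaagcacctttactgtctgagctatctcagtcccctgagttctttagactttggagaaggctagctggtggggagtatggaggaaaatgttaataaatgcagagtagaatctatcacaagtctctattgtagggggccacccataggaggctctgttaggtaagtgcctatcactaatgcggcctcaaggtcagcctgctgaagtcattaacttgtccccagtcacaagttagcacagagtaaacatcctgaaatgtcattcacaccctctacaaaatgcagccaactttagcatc
Irf2bp2 region, chr8:126614241-126614540, plus strand: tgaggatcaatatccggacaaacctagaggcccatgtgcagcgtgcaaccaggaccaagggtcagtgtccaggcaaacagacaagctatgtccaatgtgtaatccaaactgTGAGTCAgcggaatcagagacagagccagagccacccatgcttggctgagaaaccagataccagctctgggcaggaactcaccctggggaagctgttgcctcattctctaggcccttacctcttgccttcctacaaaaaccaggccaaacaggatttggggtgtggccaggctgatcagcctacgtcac

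The Col4a2 sequence held an E-box and a TEAD match and the Irf2bp2 sequence an AP-1 match, whereas the other 3 held none of the 5 motifs as spelled here. Looser forms, such as a MEF2 motif with other end bases, were not searched. GC content was 56.3% in the Col4a2, 55% in the Zbtb16 and 53.7% in the Irf2bp2 sequence, and 41.3% and 45.7% in those of Bcl6 and Slco3a1. Over all regions, 1475 windows of this length had no unknown base. Of these 24.9% (22.8% to 27.2%) held the E-box, against 25.2% of the 23562 windows from all promoter-free peaks. The MEF2 motif was in 2.64% (1.94% to 3.59%) against 2.39%, the TEAD motif in 6.24% (5.11% to 7.59%) against 5.42% and the glucocorticoid response element in 0.61% (0.321% to 1.16%) against 0.547%. The AP-1 motif was in 10.8% (9.3% to 12.5%) against 14.2%, the only one of the 5 whose share over all peaks lay outside the interval of the regions. A match is a description of the letters and not a site, and none of the motifs contains another. Base composition also differed, since the whole regions had a median GC content of 49.0% (quartiles 46.5% and 51.6%) against 46.3% (43.7% and 49.1%) for all promoter-free peaks. The ratio of observed to expected CpG was 0.209 against 0.196 at the median.

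In size and signal, measures of the mark that chose them and so a description only, the regions were near the middle of the promoter-free peaks. Their median width was 2403 bp (range 185 to 41614) against 2277 bp for all promoter-free peaks. Their median total signal, the sum of coverage across a whole peak, ranked at the 56.9th percentile of those peaks and their median maximum signal at the 55.2nd. Stem cell H3K27me3 covered a median of 72.9% of a region's bases (quartiles 42.8% and 100%), 414 regions lay wholly inside a stem cell H3K27me3 peak and 1118 had their point of highest H3K18la inside one. Among the 10 with the largest total signal, stem cell H3K27me3 covered between 4.6% and 93.7% of the bases.

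At the limit of the rule, 20 regions had fewer than 100 bases in stem cell H3K27me3. The smallest overlaps were 3 bases at the Dlc1 region (chr8:36948788-36949770, total signal 17110) and at the Iqcn region (chr8:70709866-70711967, 34658), and 9 bases at the Usp18 region (chr6:121239223-121240837, 19681). Just outside, peaks nearest to Kcnj2 (chr11:111105515-111107340, 17014), Dzip1 (chr14:118928233-118929011, 17148) and P3h2 (chr16:26098874-26101763, 17550) missed a stem cell H3K27me3 peak by 1, 6 and 6 bases. At the 2 kb limit, the regions near Camkk1 (35156) and Tmem56 (29922) lay 4 and 6 bases beyond it, and peaks near Fcgr3 (24404) and Rcsd1 (34531) reached 1 and 11 bases into a promoter.

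The regions were spread over 1473 of the 23909 stem cell H3K27me3 peaks (6.16%). Of these stem cell peaks 1381 held 1 region, 74 held 2 and 18 held 3 or more. The largest number was 4, in a 28098-bp stem cell domain at chr19:45221742-45249839 beside Lbx1, which encodes a homeobox factor of migrating muscle precursors. The stem cell peak itself reached a promoter for 284 regions (19.2%), a share that the rule holds down by leaving out every GAS peak that reached one. On every chromosome, between 4.57% (chromosome 10) and 9.43% (chromosome 11) of the promoter-free GAS peaks met the rule.

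Most regions lay in intergenic or intronic sequence. Of the 1477, 684 (46.3%) overlapped no annotated gene, 567 (38.4%) lay in introns and 226 (15.3%) touched an exon, against 36.9%, 48.7% and 14.4% of all promoter-free peaks. The nearest TSS of a protein-coding gene was a median of 19938 bp away (quartiles 6991 and 57719), against 24604 bp for all promoter-free peaks. It was within 10 kb for 33.4% against 25.6%, and beyond 100 kb for 15.4% against 16.3%.

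H3K27me3 was called at these regions more often than at other muscle H3K18la peaks in every differentiated cell type with an H3K27me3 list. In PIM 471 regions (31.9%, 29.6% to 34.3%) overlapped an H3K27me3 peak, against 8.74% of all promoter-free GAS peaks. In BMDM the count was 391 (26.5%, 24.3% to 28.8%) against 7.79%. In GAS itself 285 regions (19.3%, 17.4% to 21.4%) also carried H3K27me3, against 3.81%. MT had 277 (18.8%, 16.8% to 20.8%) against 5.77% and MB 197 (13.3%, 11.7% to 15.2%) against 3.0%. With the mESC-2i lists in place of the mESC-ser lists in the rule, 3321 regions were chosen, of which 11.9% had GAS H3K27me3 and 20.2% PIM H3K27me3, lower by more than 1.5 times and still above the shares over all peaks. Under the rule as given, in each of the 5 lists the share over all peaks lay below the interval of the regions, as did the share in the 19070 promoter-free peaks that carried neither stem cell mark (5.97% in PIM, 5.73% in BMDM, 2.22% in GAS, 4.81% in MT and 2.21% in MB). The GAS list pools nuclei of several types, so H3K18la and H3K27me3 on the same nuclei cannot be told apart from the marks on different nuclei.

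H3K18la of other cells was called at these regions about as often as at all promoter-free peaks. MT H3K18la was called at 599 regions (40.6%, 38.1% to 43.1%) against 42.6% of all promoter-free GAS peaks, and MB H3K18la at 211 (14.3%, 12.6% to 16.2%) against 14.5%. PIM H3K18la was called at 354 regions (24%, 21.9% to 26.2%) against 22.9% and BMDM H3K18la at 203 (13.7%, 12.1% to 15.6%) against 13.5%. In these 4 lists the share over all peaks lay within the interval of the regions. For MT the interval fell below that share when at least 50% of the GAS peak had to lie in stem cell H3K27me3 (36.7%, 33.8% to 39.7%, against 42.6%) and when only the stretch of highest signal was used (35.3%, 32.6% to 38.2%, against 38.7%). For PIM it lay above that share with the stretch of highest signal (20.5%, 18.2% to 22.9%, against 18%) and in peaks no wider than 2277 bp (21.6%, 18.6% to 24.8%, against 17.8%), and below it with the mESC-2i lists in the rule (21.0%, 19.6% to 22.4%, against 22.9%). ADIPO H3K18la was called at 421 regions (28.5%, 26.3% to 30.9%) against 25.4%, just below that interval. All promoter-free peaks include those with mESC-ser H3K18la, which the rule removed from the regions. Among the 19070 peaks with neither stem cell mark, the shares were 20.2% in PIM, 11.9% in BMDM and 23.1% in ADIPO, all below the intervals of the regions, and 40.9% in MT and 13.3% in MB, both within them.

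**Figure D1:**
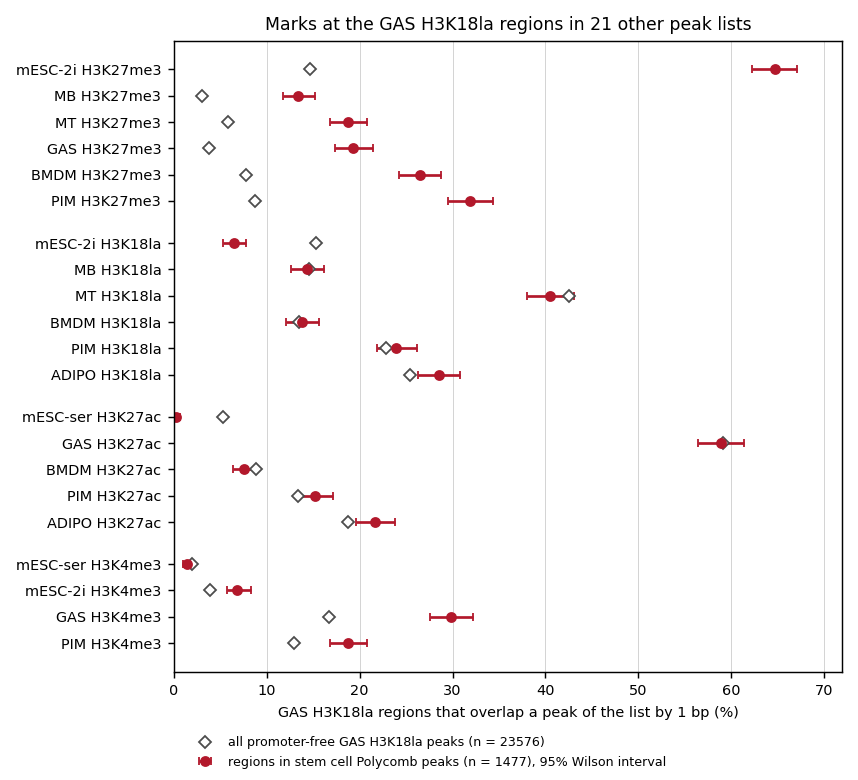
The horizontal axis gives the percentage of GAS H3K18la regions that overlap a peak of each of 21 other lists, filled circles for the 1477 regions in stem cell Polycomb peaks with their 95% Wilson intervals and open diamonds for all 23576 promoter-free peaks. The circles lie to the right of the diamonds in all 6 H3K27me3 lists and in GAS H3K4me3 (29.9% against 16.6%), and on or beside them in MB, MT, BMDM and PIM H3K18la and in GAS H3K27ac.

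Among active marks of the muscle itself, H3K4me3 stood above its share over all peaks and H3K27ac did not. GAS H3K27ac was called at 871 regions (59.0%, 56.4% to 61.5%), and at 59.2% of all promoter-free peaks. It fell below that share when at least 50% of the GAS peak had to lie in stem cell H3K27me3 (55.3%, 52.2% to 58.3%) and with the mESC-2i lists in the rule (55.4%, 53.7% to 57.1%). GAS H3K4me3 was called at 441 regions (29.9%, 27.6% to 32.2%) against 16.6%, where it covered a median of 43.5% of the bases of a region. H3K27ac and H3K4me3 were found together at 338 regions (22.9% against 13.4% of all peaks), H3K27ac alone at 533 (36.1% against 45.8%), H3K4me3 alone at 103 (6.97% against 3.29%) and neither at 503 (34.1% against 37.5%). Of the 285 regions with GAS H3K27me3, 49.8% had H3K27ac and 40.4% had H3K4me3. For the 1192 without it the shares were 61.2% and 27.3%. All promoter-free peaks showed the same order, with H3K27ac at 43.3% of those with GAS H3K27me3 and 59.8% of those without it, and H3K4me3 at 32.7% and 16.0%.

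Acetylation in the other cell types lay a few percentage points from the shares over all peaks, above them in ADIPO and PIM and within the interval in BMDM. H3K27ac was called at 319 regions in ADIPO (21.6%, 19.6% to 23.8%) against 18.8%, at 225 in PIM (15.2%, 13.5% to 17.2%) against 13.3% and at 112 in BMDM (7.58%, 6.34% to 9.05%) against 8.79%. PIM H3K4me3 was called at 277 regions (18.8%, 16.8% to 20.8%) against 12.9%. The peaks with neither stem cell mark were at 16.6% in ADIPO, 10.9% in PIM and 7.52% in BMDM for H3K27ac and at 10.1% for PIM H3K4me3. Except in BMDM, the intervals of the regions lay above both shares.

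The regions were chosen on the mESC-ser lists, so that their shares in mESC-2i cannot be set against those in mESC-ser to compare the media. The mESC-2i H3K27me3 list, which the rule did not use, overlapped 956 regions (64.7%, 62.3% to 67.1%) against 14.7% of all promoter-free peaks. Of the 521 regions without it, 13.6% carried H3K27me3 in GAS and 24.4% in PIM, against 22.4% and 36.0% of the 956 with it. H3K18la of mESC-2i was called at 95 regions (6.43%, 5.29% to 7.8%) against 15.3% of all peaks and 6.2% of those with neither mESC-ser mark, the difference between these shares being built in by the rule, which took out peaks with mESC-ser H3K18la (12.8% of the promoter-free peaks, while 7.44% overlapped mESC-ser H3K27me3 with or without it). The mESC-2i H3K4me3 list overlapped 101 regions (6.84%, 5.66% to 8.24%) against 3.92% of all peaks and 0.503% of those with neither mark. In mESC-ser itself H3K4me3 was called at 21 regions (1.42%, 0.932% to 2.16%) against 1.91% of all peaks and 0.115% of those with neither mark, and H3K27ac at 3 (0.203%, 0.0691% to 0.595%) against 5.27% of all peaks and 0.493% of those with neither mark. Those 3, named after their values were seen, were the regions nearest to Tcte2, Mepe and Ccdc102a.

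The coverage around the point of highest H3K18la showed how local each mark was. At that point 14.6% of the regions lay in a GAS H3K27me3 peak, against 2.79% of all promoter-free peaks, and the share was 9.75% at 5000 bp and 9.95% at 20000 bp, as the mean of both sides, against 2.22% and 3.35%. PIM H3K27me3 covered 26.9% at the point, 18.9% at 5000 bp and 12.9% at 20000 bp, against 7.02%, 6.12% and 6.71% of all peaks. MT H3K27me3 covered 14.3%, 14.9% and 14% at these distances, against 4.41%, 4.96% and 6.17%. GAS H3K4me3 was narrow, at 23.8% of the regions at the point and 8.63% at 5000 bp, against 13.0% and 4.04% of all peaks. GAS H3K27ac covered 53.5% and 29.7%, against 53.3% and 32.6%. MT H3K18la covered 37% of the regions at the point, against 38.6%.

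**Figure D2:**
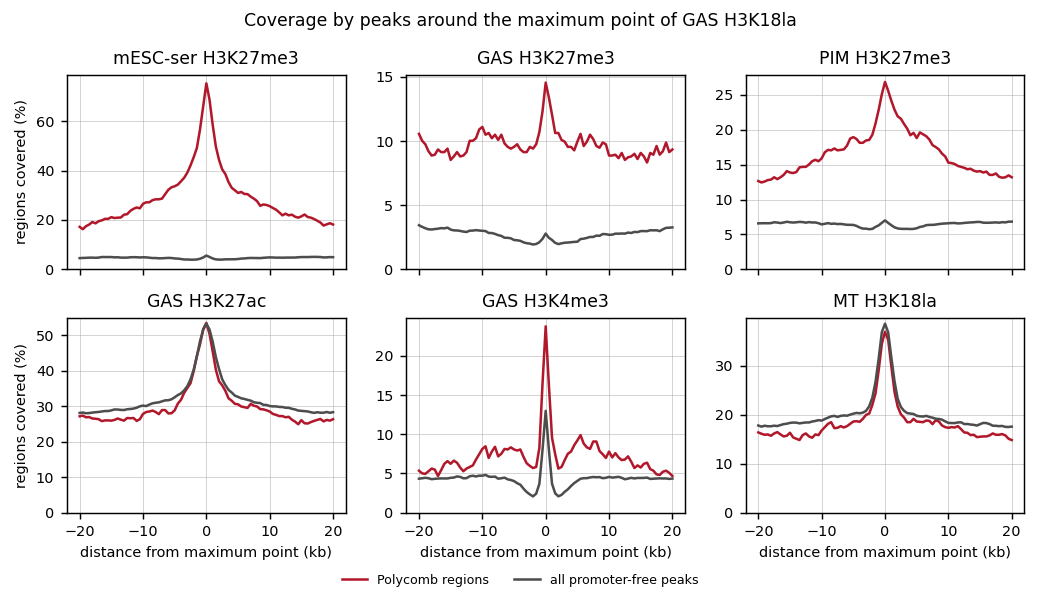
Each panel gives the percentage of regions inside a peak of the named list (vertical axis) by distance in kb from the point of highest GAS H3K18la (horizontal axis), with the regions in stem cell Polycomb peaks in red and all promoter-free peaks in grey. The red line lies above the grey one over the whole span in the 3 H3K27me3 panels. In the mESC-ser H3K27me3 panel this is built in by the rule, since that list chose the regions. Both lines nearly coincide for GAS H3K27ac and MT H3K18la, and GAS H3K4me3 peaks sharply at 23.8% against 13.0%.

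The number of cell types with H3K27me3 varied widely between the regions. In 715 regions (48.4%) none of the MB, MT, GAS, BMDM and PIM lists had an H3K27me3 peak, in 294 (19.9%) 1 list had it, in 236 (16.0%) 2, in 117 (7.92%) 3, in 71 (4.81%) 4 and in 44 (2.98%) all 5. Over all promoter-free peaks 82.9% had none and 0.344% had all 5. The same count for H3K18la in MB, MT, BMDM, PIM and ADIPO ran close to that of all peaks, with 564 regions (38.2% against 38.4%) in no other list, 425 (28.8% against 28.7%) in 1, 241 (16.3% against 17.4%) in 2, 136 (9.21% against 8.54%) in 3, 82 (5.55% against 5.07%) in 4 and 29 (1.96% against 1.9%) in all 5. Of the peaks with neither stem cell mark 40.7% were in none of these H3K18la lists and 1.27% in all 5. The lists differ in length, and a longer list has more chances to overlap a region.

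**Figure D3:**
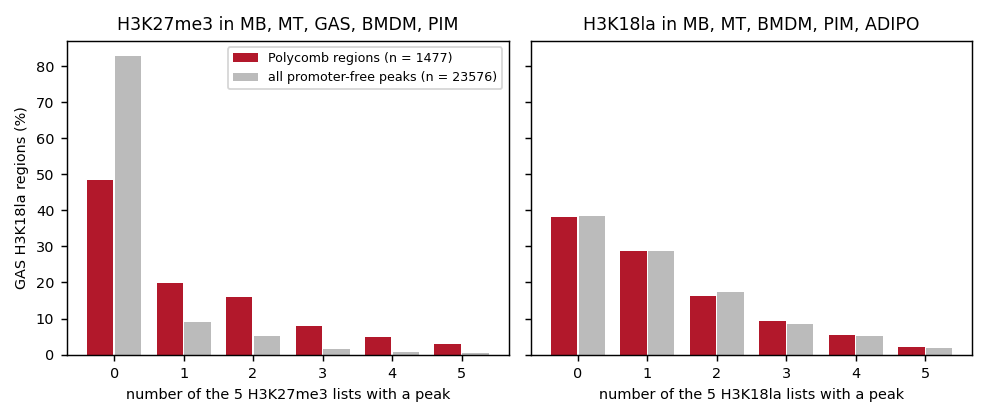
Bars give the percentage of GAS H3K18la regions (vertical axis) by the number of the 5 named lists that had a peak there (horizontal axis), for H3K27me3 on the left and H3K18la on the right, in red for the 1477 regions and in grey for all 23576 promoter-free peaks. With H3K27me3 the red bar is lower at 0 lists (48.4% against 82.9%) and higher at 1 to 5 lists, and with H3K18la the bars are nearly equal.

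Within a cell type, the regions with H3K18la carried H3K27me3 less often than those without it. In MB 1.42% of the 211 regions with MB H3K18la also had MB H3K27me3, against 15.3% of the others. These were 3 regions, nearest to Lgalsl, Mepe and Dchs1, named after their values were seen. In BMDM the shares were 6.9% against 29.6% and in MT 8.51% against 25.7%. In PIM they were 24.6% against 34.2%. All promoter-free peaks showed the same order at lower levels, with 0.612% against 3.41% in MB, 2.64% against 8.59% in BMDM, 2.41% against 8.26% in MT and 7.96% against 8.97% in PIM. Each list was called on its own, so the 2 marks were read from different samples of the cell type.

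Regions that carried H3K27me3 in 3 to 5 of the 5 lists (232 regions) had less H3K18la elsewhere than the 715 with none, at 24.1% against 43.1% in MT, 10.8% against 28.8% in PIM and 23.7% against 30.5% in ADIPO. Their GAS H3K4me3 share was higher, at 38.4% against 25.2%, and their GAS H3K27ac share lower, at 49.6% against 58.5%. Median GC content was 50.9% against 48.1%, and median widths were nearly equal (2340 and 2366 bp). The same split of all promoter-free peaks gave the same order in most of these measures, with MT H3K18la at 29.4% against 43.4%, PIM H3K18la at 12.9% against 23.8%, GAS H3K4me3 at 29.6% against 15.3%, GAS H3K27ac at 49.4% against 60.3% and median GC content at 50.3% against 45.9%. ADIPO H3K18la had the opposite order there, at 26.8% against 25.1%, and the difference between the splits was not tested. The 29 regions with H3K18la in all 5 other lists had a median width of 4410 bp, and 82.8% of them had GAS H3K27ac, compared with a width of 2092.5 bp and a share of 46.3% for the 564 regions with it in none. Over all promoter-free peaks the widths were 4456.5 and 2048 bp and the shares 81.7% and 53.4%.

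Width moved with several of these shares. In tertiles of width set on all promoter-free peaks (up to 1887 bp, up to 2903 bp and wider), GAS H3K27me3 was at 22.0%, 22.1% and 14.8% of the regions against 4.42%, 3.66% and 3.35% of all peaks, so that the excess was present at every width. GAS H3K27ac was most frequent in the widest tertile, in the regions (48.0%, 49.5% and 75.4%) and in all peaks (47.6%, 52.7% and 77.3%). GAS H3K4me3 was at 24.7%, 23.0% and 39.6% of the regions against 10.5%, 12.2% and 27.3% of all peaks. For H3K18la of other cells the shares of the regions lay differently against those of all peaks by width in some lists. PIM H3K18la was at 23.6% (19.9% to 27.7%) of the narrowest regions against 17.6% of all narrowest peaks, and at 26.0% (22.5% to 29.7%) of the widest against 30.6%. ADIPO H3K18la was at 25.6% (21.7% to 29.8%) against 20.1% in the narrowest tertile and at 34.5% (30.7% to 38.5%) against 34.7% in the widest. BMDM H3K18la was at 12.9% (10.1% to 16.3%) against 10.4% and at 15.2% (12.5% to 18.4%) against 18.7%. For MB and MT the share over all peaks lay within the interval in each tertile. Regions wholly inside the stem cell peak had H3K27me3 more often in GAS (30.7% against 14.9% of those partly inside) and in PIM (42.0% against 27.9%) and were narrower (1940 against 2778 bp at the median). A region was in a median of 6 of the 24 lists and all promoter-free peaks in 4, with the 2 marks that chose the regions included.

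The 10 regions with the largest total signal were wide domains, with 1 exception, and GAS H3K27ac covered 60.4% to 100% of each. The Col4a2 region (chr8:11357773-11399386, 41614 bp, total signal 788424) carried H3K18la over 93.8% of its bases in MT, 82.3% in ADIPO and 61.3% in MB, and H3K27me3 over 89.6% in BMDM and 45.1% in PIM. The Zbtb16 region (chr9:48768151-48791224, in an intron, 614792) carried H3K18la over 87.4% of its bases in ADIPO and had none in MB or MT. The region nearest to Bcl6 (chr16:24172627-24195002, 183775 bp from its TSS, 610719) carried H3K18la in all 5 other cell types, over 79.9% of its bases in ADIPO and 74.8% in MT, and H3K27me3 in none. In all 3, ADIPO H3K18la reached over most of the bases.

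The fourth, nearest to Tcte2 (chr17:13550487-13553243, 562510), was 2757 bp wide, with a maximum signal at the 99.8th percentile of promoter-free peaks. It had a peak in 17 of the 24 lists, and an observed to expected CpG ratio of 0.0147, unlike the other 9, which ranged from 0.135 to 0.253. Of all regions 95 (6.43%) were in 12 lists or more, against 2.92% of all promoter-free peaks, and 18 (1.22%) in 15 or more, against 0.81%. These counts include the lists of the marks that chose the regions. Whether such peaks mark chromatin was not tested. The region nearest to 1700012B07Rik (chr11:109870721-109897979, 546399) was intergenic and had H3K18la in MT alone, over 16.5% of its bases, and MT H3K27me3 over 10.7%. The Zfp366 region (chr13:99224678-99246946, 544357) lies in the gene of a zinc finger protein and had H3K18la in MT and MB, over 58.0% and 25.9%.

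The Slco3a1 region (chr7:74366228-74389364, 526220) had H3K18la in MB, MT, PIM and ADIPO, over 6.46% to 29.6% of its bases, and no H3K27me3 outside the stem cells. The region nearest to Gata5, which encodes a GATA factor of heart and endoderm (chr2:180357708-180380361, 516665), was the reverse, since H3K27me3 was called there in all 5 differentiated lists, over 21.9% of its bases in PIM, 26.9% in GAS, 85.7% in MB, 88.7% in BMDM and 100% in MT. MT H3K18la and GAS H3K27ac also covered it whole, at 100% each. The Bin1 region (chr18:32385215-32401487, 513073) lies in an intron of the gene for a membrane-shaping protein of muscle T-tubules. It had H3K18la over 97.9% of its bases in MT, 65.1% in PIM, 51.1% in MB and 33.3% in BMDM, with none in ADIPO. The region 12436 bp from Irf2bp2 (chr8:126606422-126624367, 503283) had H3K18la in all 5 other cell types and over 100% of its bases in MT.

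Of the 1477 regions, 105 (7.11%, 5.91% to 8.53%) carried H3K18la in MB and MT and H3K27me3 in none of MB, MT, GAS, BMDM and PIM, against 11.8% of all promoter-free peaks. The 5 largest were those nearest to Bcl6, Slco3a1, Bin1 and Irf2bp2, above, and a further region 132402 bp from Irf2bp2 (chr8:126726388-126745561, 439380) with H3K18la over 97.1% of its bases in MT and 32.6% in MB. The 44 regions with H3K27me3 in all 5 differentiated lists had GAS H3K27ac in 23 cases (52.3%, 37.9% to 66.2%), against 54.3% of the 81 promoter-free peaks of this kind, which include the 44. After Gata5, the largest of them were in Sel1l3 (chr5:53194248-53207854, 292428), in Asb18 (chr1:89994902-90002552, 172756), near 1700122O11Rik (chr17:48021858-48026473, 117053) and near Tmem255b (chr8:13424749-13431841, 110709). GAS H3K27me3 covered 27.6%, 59.7%, 29.4% and 2.96% of their bases and GAS H3K27ac 93.7%, 80.8%, 65.8% and 85.1%.

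**Figure D4:**
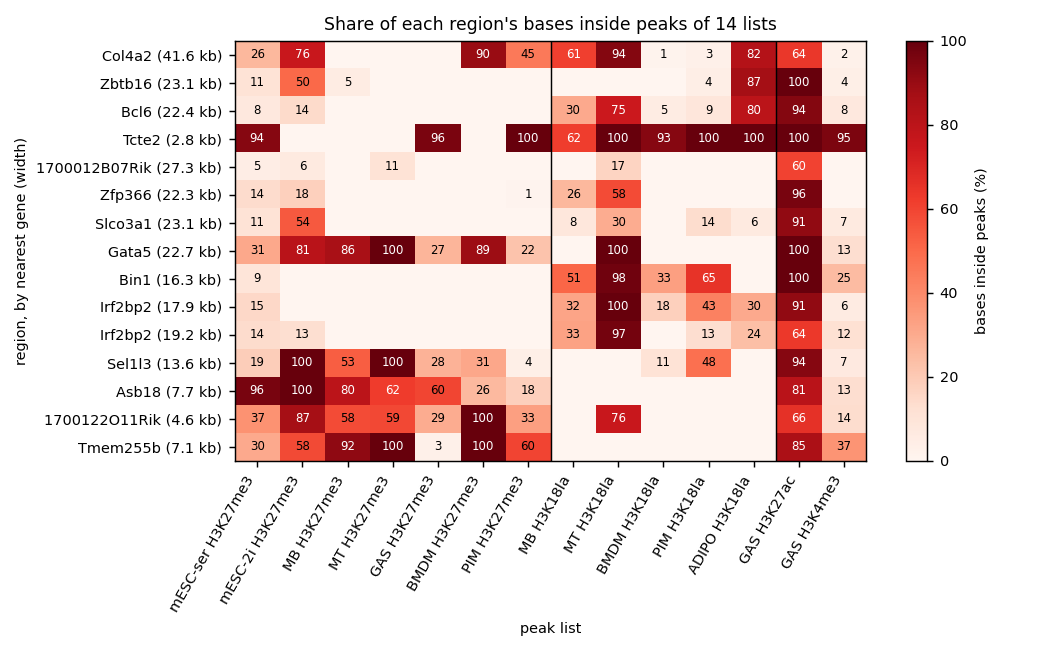
Rows are the 15 named regions, given by nearest gene and width in kb, columns are 14 peak lists, and each cell gives the percentage of the region's bases inside peaks of that list, blank where there was none. The lower 4 rows and the Gata5 row are filled across the H3K27me3 block on the left, and the Bcl6, Slco3a1, Bin1 and Irf2bp2 rows are blank there outside the stem cell columns.

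The nearest protein-coding genes numbered 992, of which 703 were nearest to 1 region and 103 to 3 or more. The nearest gene is a matter of distance and need not be the gene that a region acts on. Of the promoters of these genes 71.1% overlapped mESC-ser H3K27me3, against 38.3% for the 6275 genes nearest to any promoter-free GAS peak, and 36.1% against 22.8% overlapped GAS H3K27me3. The first difference is partly built in, because the same mESC-ser H3K27me3 list chose the regions and the stem cell peak of 284 regions itself reached a promoter. GAS H3K18la at the promoters was at 64.4% against 61.6% and GAS H3K4me3 at 82.8% against 82.9%.

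Cdkn1c, an imprinted gene for a cyclin-dependent kinase inhibitor, was nearest to the most regions, 11 of its 12 promoter-free GAS peaks. All 11 lay within the body of Kcnq1, a neighbouring potassium channel gene, between 30326 and 146871 bp from the Cdkn1c TSS (chr7:143310364-143428985). GAS H3K27ac was called at 8 of them and GAS H3K27me3 at 0. MB and MT H3K18la were at 0 and ADIPO H3K18la at 4, while H3K27me3 was at 6 in MT, 7 in BMDM and 7 in PIM. The Cdkn1c promoter itself carried H3K27me3 in mESC-ser, MT and PIM and no H3K18la in GAS. The widest of the 11 (chr7:143406639-143419392) had a total signal of 348059 and was in GAS H3K27ac over 100% of its bases.

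Irs2, which encodes an adaptor of the insulin receptor, was nearest to 9 regions of 23 peaks. GAS H3K27ac and ADIPO H3K18la were each called at 8 of the 9, MT H3K18la at 5 and MB H3K18la at 3, and 5 had H3K27me3 in no differentiated list. Sox9, a transcription factor of cartilage and many progenitors, was nearest to 8 of 10, all from 68156 to 381273 bp away. MT H3K18la was called at 6 of these and MB H3K18la at 4, but GAS H3K27ac at 1, and 6 had H3K27me3 in none of the 5 lists. The Irs2 regions thus had acetylation at nearly all members and the Sox9 regions at a single one.

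Smoc2, which encodes a secreted calcium-binding matrix protein, was nearest to 7 regions of 9 peaks, and H3K18la was called at none of the 7 in MB, MT, BMDM, PIM or ADIPO. MB H3K27me3 was called at all 7 and MT H3K27me3 at 4, whereas BMDM and PIM H3K27me3 were at 0. GAS H3K27ac was at 2 and GAS H3K27me3 at 2. Ets1, an ETS factor of endothelium and lymphocytes, had 7 regions of 24 peaks, with MT H3K18la at 4, MB H3K18la at 3, GAS H3K27ac at 4 and PIM H3K27me3 at 3. Zmiz1, a transcriptional coregulator, had 7 of 34 peaks, with ADIPO H3K18la at 4, MT and PIM H3K18la at 3 each and PIM H3K27me3 at 3.

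The other 4 of the 10 genes with the most regions had 6 each. Nfatc1, a calcineurin-dependent transcription factor, had 6 of 18 peaks, all 6 with GAS H3K27ac and 5 with H3K27me3 in no differentiated list. Scml4, a relative of the Polycomb group gene Sex comb on midleg, had 6 of 12, with GAS H3K27ac at 5 and PIM H3K27me3 at 4. Of these 6, 3 lay within a coding gene, Scml4 or Sobp. Trio, a guanine nucleotide exchange factor, had 6 of 18, with MT H3K18la at 4, GAS H3K27ac at 4 and PIM H3K27me3 at 2. Ier5, an immediate early response gene, had 6 of 8, with GAS H3K27ac at 5, PIM H3K18la at 4, MT and MB H3K18la at 3 each and PIM H3K27me3 at 2.

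**Figure D5:**
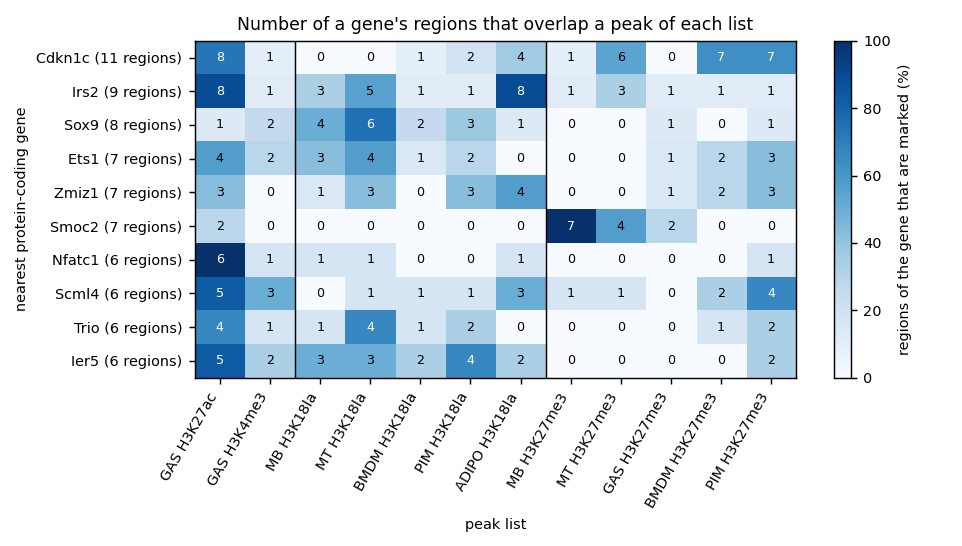
Rows are the 10 genes nearest to the most regions, columns are 12 peak lists of GAS, MB, MT, BMDM, PIM and ADIPO, each number is the count of the gene's regions that overlap a peak of the list, and the shade is that count as a percentage of the gene's regions. Smoc2 is filled in MB and MT H3K27me3 and empty in all H3K18la columns, Cdkn1c is empty in MB and MT H3K18la, and Sox9 is filled in MT H3K18la (6 of 8) with 1 region in GAS H3K27ac.

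Genes of developmental regulators were nearest to a larger share of the regions than of all promoter-free peaks. Homeobox transcription factors, which pattern the body axis and organs, were nearest to 33 regions (2.23% against 1.1%) at 23 genes, with 3 each near Pknox2, Hoxc4 and Hlx and 2 near Zeb2. Other developmental transcription factors were nearest to 67 regions (4.54% against 2.36%) at 31 genes, led by Sox9, Ets1 and, with 4 each, Ebf3 and Ebf1, which specify neuronal, adipocyte and B-cell lineages. Developmental signalling genes, the ligands, receptors and inhibitors of pathways such as Wnt, Notch and PDGF, were nearest to 49 regions (3.32% against 1.71%) at 30 genes. Among these were the growth factor gene Pdgfa with 5, all of which had BMDM H3K27me3, and with 3 each Igf2, an insulin-like growth factor, Wnt11, a Wnt ligand, and Dll4, a Notch ligand of vessels. The rule can build in such an excess, since it chose the regions by stem cell H3K27me3, a mark of silent developmental regulator genes. Stem cell H3K27me3 peaks in general were not compared. The gene lists were drawn up with earlier results of these data known, so the shares describe the lists and are not independent evidence.

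Lists of muscle genes were split. Calcium handling and muscle ion channel genes were nearest to 21 regions (1.42% against 0.484%) at 12 genes. Camk2a, a calmodulin-dependent kinase, had 3, and Jph2, which joins the sarcoplasmic reticulum to the surface membrane, and Cacna1s, the calcium channel of skeletal T-tubules, had 2 each, all 4 of these with GAS H3K27ac and MT H3K18la and also with BMDM H3K27me3. Of the Camk2a regions 3 had GAS H3K27ac, 2 MT H3K18la and 2 BMDM H3K27me3. Myogenic regulators were nearest to 19 regions (1.29% against 0.662%) at 10 genes. Lbx1 had 4, all with H3K27me3 in BMDM and PIM and with H3K18la in no cell type other than GAS. Of these 4, 2 had GAS H3K27me3 and 3 had GAS H3K27ac. Mef2c, a MADS-box factor of muscle, and Nfix, a regulator of fetal myogenesis, had 3 each, all with GAS H3K27ac, and H3K27me3 in a differentiated list was called at 2 of the Mef2c and none of the Nfix regions. Pax7, the satellite cell factor, had 2 with no GAS H3K27ac and no H3K18la elsewhere, of which 1 had GAS H3K27me3. Sarcomere and contraction genes were nearest to 7 regions (0.474% against 0.577%) at 7 genes. The regions near Acta1, skeletal actin, Pdlim3, a Z-disc protein, Cmya5, a muscle-specific scaffold, and Myh3, embryonic myosin, all had GAS H3K27ac and MT H3K18la. Each of these 4 also had H3K27me3 in a differentiated list, the Pdlim3 region in MT, the Cmya5 region in MT and BMDM and the Acta1 and Myh3 regions in PIM.

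Extracellular matrix and fibroblast genes were nearest to 30 regions (2.03% against 1.12%) at 18 genes, with 3 each near the collagen gene Col15a1, the procollagen peptidase gene Adamts2 and Col1a1, and 2 near Col4a1. Both Col4a1 regions lay within the body of Col4a2. The 3 Col1a1 regions had MT H3K18la and no GAS H3K27ac, and H3K27me3 in BMDM and PIM, and 2 of them had H3K27me3 in GAS as well. Endothelial and vascular smooth muscle genes were nearest to 12 regions (0.812% against 0.467%) at 6 genes. Of these Cdh5, the cadherin of endothelial junctions, had 6, of which 4 had MT H3K18la and 1 GAS H3K27ac, and Kdr, a VEGF receptor, had 2, and Mylk, the smooth muscle myosin kinase, and Erg, an endothelial ETS factor, had 1 each. Glucose and lipid metabolism genes were nearest to 12 regions (0.812% against 0.636%), all at Irs2 and at Ppara, a nuclear receptor of fatty acid oxidation, whose 3 regions each had GAS H3K27ac, GAS H3K4me3, MT H3K18la and ADIPO H3K18la, and 1 of them PIM H3K27me3. Neuronal adhesion, receptor and channel genes, many of which are Polycomb targets in stem cells, were nearest to 7 regions (0.474% against 0.865%), 2 each at Ntm and Adgrl2 and 1 each at Cacna1c, Kcnma1 and Lingo1, the last named after the values were seen.

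The rule applied in the same way to H3K18la of the other differentiated cells picked 1265 of 22411 promoter-free peaks in MT (5.64%, 5.35% to 5.95%), 1092 of 19179 in PIM (5.69%, 5.37% to 6.03%), 967 of 15503 in ADIPO (6.24%, 5.87% to 6.63%), 478 of 9689 in MB (4.93%, 4.52% to 5.38%) and 572 of 13283 in BMDM (4.31%, 3.97% to 4.66%). The GAS share of 6.26% lay within the interval of ADIPO and above those of the other 4. Whether the share depends on the length of each list was not tested, so no order of cell types was drawn from it.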

How the data were processed

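CUT&Tag peak lists of 24 groups were used. Per the methods and labels, the authors trimmed reads with Trim Galore 0.6.6, aligned them with Bowtie2 2.4.4 to mm10, sorted them with SAMtools 1.13, computed coverage with bedtools 2.30, combined the coverage of replicates and called peaks with SEACR 1.3 in stringent mode, keeping the top 1% of regions. The deposited columns give the total signal of each peak and a score, its maximum signal. Both are whole-number coverage not scaled for depth, so signal was ranked within a list only.

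Peaks were compared with GENCODE M21 (134417 transcripts on chromosomes 1 to 19) in Python 3.11.15 with numpy 2.4.6, pandas 2.3.3 and scipy 1.17.1, and plotted with matplotlib 3.10.9. An overlap of 1 bp counted as marked. Exons and introns were those of any annotated gene. Sequences were read from GRCm38, the assembly named mm10. Interval functions were tested on simulated data against bedtools 2.31.1. Since replicates were pooled, the groups were compared by shares with Wilson intervals at 95% and no test over samples.

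The regions, the gene lists and the motifs were chosen with earlier results of these data known. Regions and genes were named by these rules: the 10 regions of largest total signal, the 10 protein-coding genes nearest to most regions (ties by summed signal), up to 4 genes per list on the same order, the 5 largest regions with MB and MT H3K18la and no H3K27me3 in 5 differentiated lists, the 5 largest with H3K27me3 in all 5, and those at the limits of the rule. Sequences were printed for the leading regions of 2 of these sets, leaving out chromosome 18. A gene that the rules pick is not reported here. Of the listed genes, those on chromosome X or under another symbol had no match. For the 8 alternatives see the closing section.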

Additional observations from a re-analysis of the deposited data

Results flagged for a closer look

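Chromosome X was left out of all comparisons of the report. The GAS H3K18la list held 491 peaks there, of which 311 were promoter-free, and 24 of these (7.72%, 95% Wilson interval 5.24% to 11.2%) met the same rule. The share on chromosomes 1 to 19, 6.26%, lay within this interval, and single chromosomes ran from 4.57% to 9.43%, so that chromosome X did not stand apart. The count is given because it lies in data that the report did not use and exceeds the limit that a count of 0 allows.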

How the results depend on the processing

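The number of regions and 6 shares were recomputed under 8 alternatives, which gave 55 values. Of these 24 stayed within the counting interval of the value in the report (for the number, within 1.5 times) and 31 moved, none of which had a test. The share with H3K27me3 in GAS, MT and PIM exceeded that over all promoter-free peaks in 24 of 24 alternative values, by 3.12 to 6.82 times in GAS, 2.72 to 4.23 in MT and 2.31 to 5.25 in PIM. For GAS H3K27ac, MT H3K18la and PIM H3K18la the position of the interval against all promoter-free peaks changed under some alternatives, given beside those shares in the report. Promoters of protein-coding genes only, or of 1 kb, moved none of the values. With at least 50% of the GAS peak in stem cell H3K27me3, the shares were 55.3% for GAS H3K27ac, 22.5% for GAS H3K27me3, 36.7% for MT H3K18la and 34.5% for PIM H3K27me3. With at least 25% of the region's bases needed for a mark, they were 16.4% for MT H3K27me3, 20.6% for PIM H3K18la and 29.1% for PIM H3K27me3. With only peaks at or above the median total signal in every list, which also shortens the mESC-ser H3K18la list that leaves peaks out, 531 regions met the rule, with GAS H3K27ac at 62.7%, GAS H3K27me3 at 14.7%, MT H3K18la at 36.7%, MT H3K27me3 at 16.2% and PIM H3K18la at 20.5%. With the stretch of highest signal in place of the whole peak, the same marks stood at 52.1%, 17.2%, 35.3%, 15.9% and 20.5%, and PIM H3K27me3 at 29.5%. With the mESC-2i lists in the rule there were 3321 regions, with these 6 shares at 55.4%, 11.9%, 43.2%, 15.7%, 21.0% and 20.2%. With GAS peaks no wider than 2277 bp there were 682, with GAS H3K27ac at 47.8%, GAS H3K27me3 at 22.0%, MT H3K18la at 31.5% and PIM H3K18la at 21.6%. Fewer or other peaks enter by construction, and further causes were not tested.

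No paired analysis was possible because replicates were pooled before peak calling, and no replicate was left out for the same reason. Depth is unknown from the lists, the paper's read numbers were not used, and a mark not called at a region is not shown to be absent.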

Other observations

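Imprinted genes, expressed from a single parental allele, were looked at after Cdkn1c had been seen to lead the gene counts, with a list of 54 genes of which 53 were annotated on chromosomes 1 to 19. They were nearest to 27 of the 1477 regions (1.83%) and to 74 of all 23576 promoter-free GAS H3K18la peaks (0.314%). The 27 lay at 6 of the 20 listed genes that had any promoter-free peak. Cdkn1c held 11 of its 12 peaks, Dlk1, which encodes a transmembrane protein of the Notch ligand family, 5 of 5, Grb10, an adaptor that restrains insulin signalling, 5 of 6, Igf2 3 of 3, Kcnq1 2 of 6 and Dio3, a deiodinase, 1 of 2. GAS H3K27ac was called at 8 of the Cdkn1c regions, 2 of the Igf2 regions and 1 each of the Dlk1 and Grb10 regions, and GAS H3K27me3 at 4 of the Grb10, 2 of the Dlk1, 2 of the Igf2, 1 of the Kcnq1, 1 of the Dio3 and none of the Cdkn1c regions. Regions of a gene share a locus and so can neighbouring genes, the Cdkn1c regions lying in the body of Kcnq1, so the 27 are not independent counts, and the list was chosen after values were seen.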
